A study of Oreochromis niloticus with 3 samples.

Results

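The circadian clock genes and their regulators were followed in the hepatopancreas of Nile tilapia (Oreochromis niloticus) kept at 3 salinities. The group was proposed with earlier results of these data known, and its members were then taken by gene symbol, without use of their values. They were all genes of the count table whose symbol began with per1, per2, per3, cry and a digit, nr1d, arntl, bmal, clock, npas2, dbp, tef, hlf, nfil3, ror and a, b or c, bhlhe4, ciart, csnk1d or csnk1e. 36 of the 29605 genes of the table fitted, and 35 of them reached 10 counts in a library, as did 16573 genes of the whole table. The exception was nfil3-4, with 1, 2 and 1 counts at 0, 8 and 16 psu. One of the 35, tefm, fitted by its letters only, since it names a mitochondrial transcription elongation factor. It was kept in the counts because the rule selects it, and 34 members remained without it.

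The fish were healthy juveniles. The control fish stayed in freshwater (0 psu), and the other 2 groups were brought to 8 psu (brackish water of low salinity) or 16 psu in steps of 4 psu per day. According to the sample descriptions they were then held for 5 weeks, whereas the methods of the study give a longer time. All groups were kept under equal periods of light and dark, were fed in the morning and in the afternoon, and had been fasted for a day before sampling. The hepatopancreas of 8 fish per salinity went into 1 library, sequenced as poly(A) RNA on the Ion Proton platform. There were therefore 3 libraries and no replicates, and the variation between fish or tanks could not be measured. The clock hour at which each group was sampled is not given in the sources used here, so an hour that differed between groups and the salinity cannot be told apart.

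The circadian clock is a feedback loop of transcription that runs in most cells, including those of the liver. CLOCK or its paralog NPAS2 pairs with a BMAL protein and activates genes that carry E-boxes. Among these are the per and cry genes, whose products return to the nucleus and repress the pair. A second loop sets the REV-ERB repressors (nr1d genes) against the ROR activators at shared elements, and an output loop sets the DBP, TEF and HLF activators against the repressor NFIL3 at D-boxes. In the liver these loops time much of metabolism, and their transcripts are known for large changes over the day. Feeding time and glucocorticoids are known to shift their phase.

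The libraries held 14627514, 13628578 and 16112951 counts at 0, 8 and 16 psu. Values are given as counts or as CPM, that is, counts rescaled to a common library size, by library sizes scaled with TMM, a method that assumes most genes are unaltered. On this scale 1 count was worth 0.0729, 0.0716 and 0.0596 CPM at 0, 8 and 16 psu. The cell type entered in the sample descriptions is histiocytes of hepatopancreas. The libraries nevertheless carried hepatocyte transcripts in bulk, with 9 marker loci summing to 72127, 83505 and 85534 CPM at 0, 8 and 16 psu. The locus hpxa alone had 39037, 49138 and 43087 CPM of these sums. Of the 9 loci, 8 were higher and 1 was lower at 16 psu than at 0 psu. Only CP, with 1299, 2359 and 4579 CPM, rose at 16 psu against 0 psu by the criteria of the next paragraph. The exocrine pancreas genes prss1 and cpb1, the 2 matched of 11 symbols listed, summed to 7959, 11177 and 10961 CPM. The sums of 7 macrophage loci, chosen after their values were seen, were 100, 132 and 121 CPM. Markers of other tissues moved between libraries: 6 skeletal muscle loci summed to 14.3, 4.01 and 97.9 CPM, and 3 loci listed for enterocytes to 1255, 191 and 172 CPM. Nearly all of the enterocyte sum came from apoa4b (1248, 191 and 171 CPM). The other enterocyte loci were fabp2, with 23, 0 and 0 counts, and apoa4a, with 83, 0 and 3. Of the muscle loci, 4 fell at 8 psu and 5 rose at 16 psu against 0 psu by the criteria given next. The 4 erythrocyte loci summed to 191, 201 and 166 CPM. The 4 islet loci summed to 11.5, 11.4 and 11.2 CPM, nearly all of it from pdx1 (11.4, 11.1 and 11.2 CPM). Of the others, ins and insb had 0 counts and gcgb had 2, 4 and 1. The part of these cells in the clock results was not tested. In a bulk library, fewer cells of a type and less RNA per cell cannot be told apart.

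A gene was called as risen or fallen when it passed both criteria: its fold change, taken after adding 0.5 CPM, was above 2 or below 0.5, and the Benjamini-Hochberg adjusted p of an exact binomial test on its reads was under 0.05 over all 16573 genes. Such a test compares 2 libraries and not the salinities. Each difference also has an exact 95% counting interval for the ratio of the CPM values without the addition, which covers counting error only. The intervals are not adjusted for the number of genes. One can therefore exclude no change where the adjusted p is above 0.05, as for hlfb in the 0 vs 8 psu set (adjusted p = 0.104 by the exact binomial test). The 0 vs 8 psu set and the 0 vs 16 psu set share the 0 psu library, and each set shares a library with the others. Where 3 values of a gene follow each other without further words, they stand for the libraries in rising salinity, or for the sets 0 vs 8 psu, then 0 vs 16 psu, then 8 vs 16 psu.

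In the hepatopancreas few clock genes passed the criteria. In both sets against freshwater, the majority of the intervals that excluded no change lay on the side of higher CPM in saline water. In the 0 vs 8 psu set, 2 of the 35 members rose (roraa and cry5), where 4.42% of all genes rose, and 2 fell (ciarta and clocka), where 5.33% fell. In the 0 vs 16 psu set none rose, against 5.79% of all genes, and 1 fell (hlfa), against 5.27%. In the 8 vs 16 psu set 2 rose (ciarta and clocka), against 3.40%, and none fell, against 2.13%. These shares were near the background of all genes. By edgeR's exact test with a biological coefficient of variation assumed at 0.2, no member passed in any set after adjustment, and 6, 4 and 4 of 35 members had an unadjusted exact p under 0.05 in the 3 sets in turn, beside 12.98%, 14.89% and 7.52% of all genes.

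Smaller differences were common among the members. In the 0 vs 8 psu set 25 members had a positive log2 fold change and 10 a negative one, with a median of 0.25 against 0.00 for all genes. The interval lay above no change for 14 members, where 20.4% of all genes did so, and below it for 7, where 23.0% did. Among the 14, those of hlfb and tefb went with an adjusted p above 0.05 by the exact binomial test. In the 0 vs 16 psu set 27 members were positive and 8 negative, with a median of 0.36 against 0.01. Here 18 intervals lay above no change (background 22.1%) and 3 below it (background 23.6%). Of the 18, those of bhlhe41, cry5, csnk1da, rorb and rorc went with an adjusted p above 0.05 by the exact binomial test. In the 8 vs 16 psu set 21 members were positive and 14 negative, with a median of 0.05 against 0.00 (0.20 over the 24 members with a mean of at least 100 counts). There 13 intervals lay above (background 17.9%) and 6 below (background 17.1%). Among the 13, those of cry1b, dbpb and nr1d2b went with an adjusted p above 0.05 by the same exact test, as did those of hlfb, npas2 and rorca among the 6.

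Intervals narrow with depth, and the members were counted more deeply than most genes, with a median of 199 counts per library against 80. The counts were therefore repeated over the 24 members and 7342 genes with a mean of at least 100 counts. Above this minimum the members and the other genes were not matched for depth. Of these members, 11, 16 and 12 had an interval above no change in the 3 sets in turn, against 25.3%, 28.0% and 25.9% of the 7342 genes. Intervals below no change were found for 6, 2 and 3 members, against 33.8%, 33.5% and 23.6%. The excess of intervals above no change was thus present with this minimum as well, most of all in the 0 vs 16 psu set. It is an excess beyond counting error only, since the intervals leave out the variation between fish or tanks. With library sizes taken as total counts, the median of all genes itself moved to 0.12 at 8 psu and 0.14 at 16 psu against freshwater, and the members' medians were 0.37 and 0.50. Such a scaling moves the members and all other genes together.

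**Figure D1:**
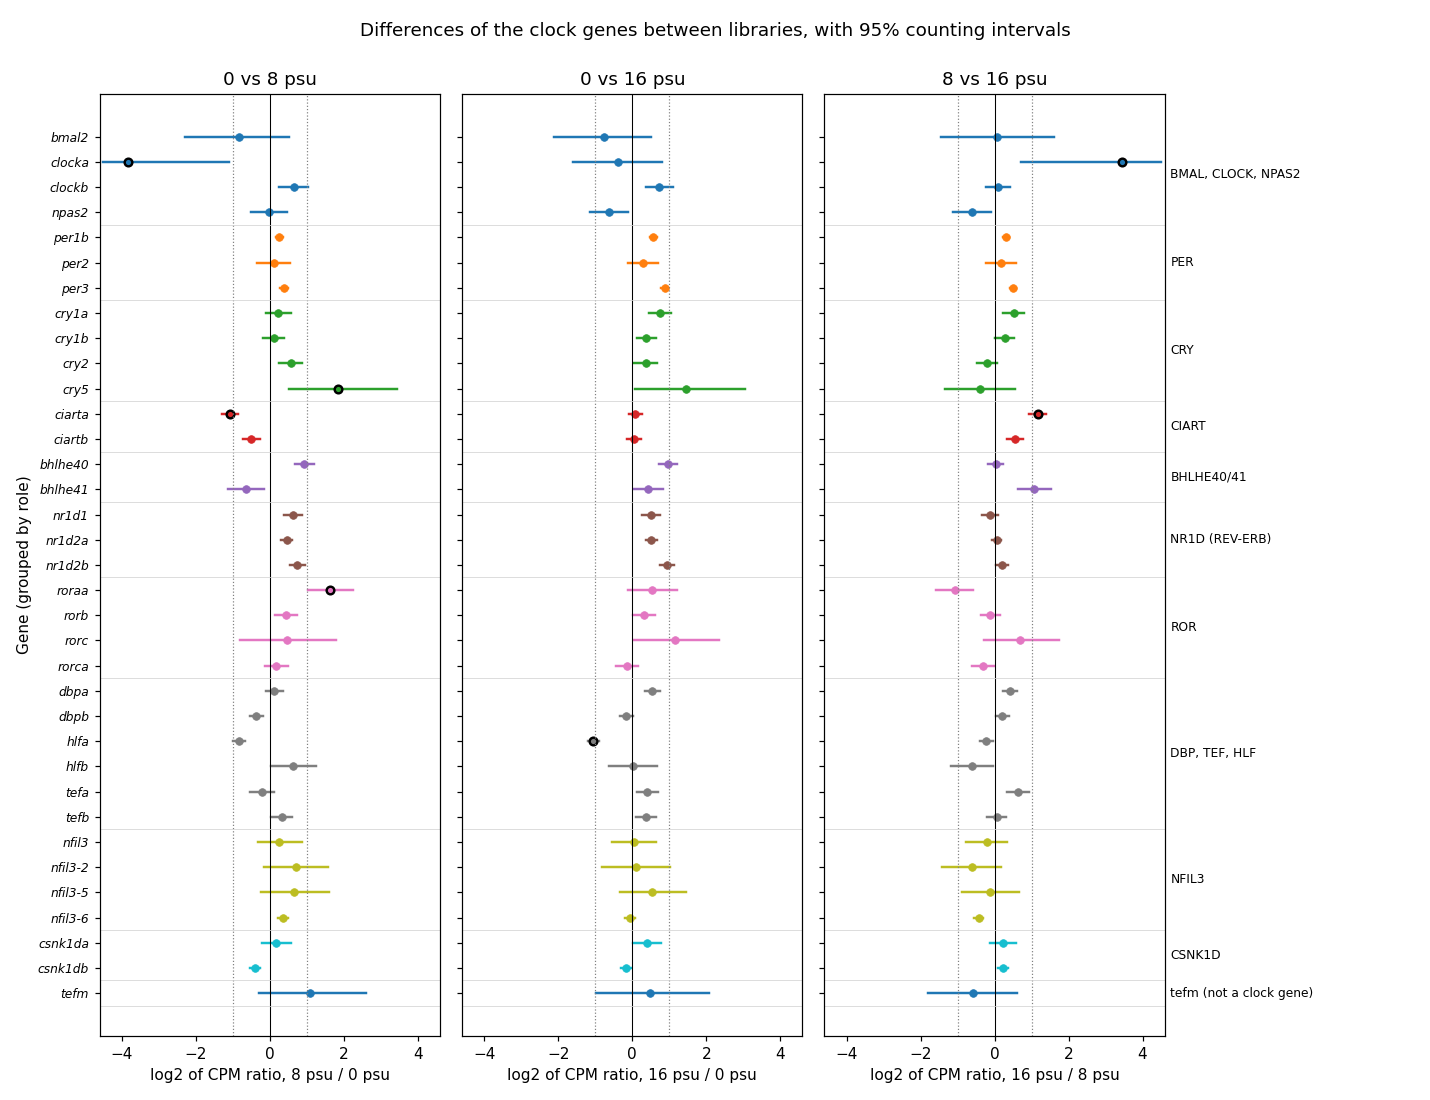
Log2 ratio of CPM between libraries (x axis) for each of the 35 clock genes with at least 10 counts in a library (rows, coloured by role), in the 3 sets. Points are ratios without an added constant, lines are exact 95% counting intervals (clipped at the edge for clocka), dotted lines mark 2-fold, and black rings mark genes that passed both criteria, which were 4, 1 and 2 in the respective sets. The points of the middle panel lie mostly to the right of 0, where 27 of 35 log2 fold changes were positive.

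The order of the 3 libraries describes the group in another way. CPM was lowest at 0 psu for 23 of the 35 members, or 65.7%, where this held for 37.2% of all genes. It was lowest at 8 psu for 8 members (22.9%, all genes 30.7%) and at 16 psu for 4 (11.4%, all genes 31.6%). Conversely, 17 members (48.6%, all genes 32.0%) were highest at 16 psu, 12 (34.3%, all genes 30.6%) at 8 psu and 6 (17.1%, all genes 36.8%) at 0 psu. CPM was ordered from 0 over 8 to 16 psu for 13 members, or 37.1% against 19.1% of all genes: bhlhe40, clockb, cry1a, cry1b, csnk1da, dbpa, nr1d2a, nr1d2b, per1b, per2, per3, rorc and tefb. The order with 0 psu lowest and 8 psu highest held for 10 members, or 28.6% against 18.1% of all genes: cry2, cry5, hlfb, nfil3, nfil3-2, nfil3-5, nr1d1, roraa, rorb and tefm. Many neighbours in these orders did not differ beyond counting error, as the intervals given for single genes show.

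**Figure D2:**
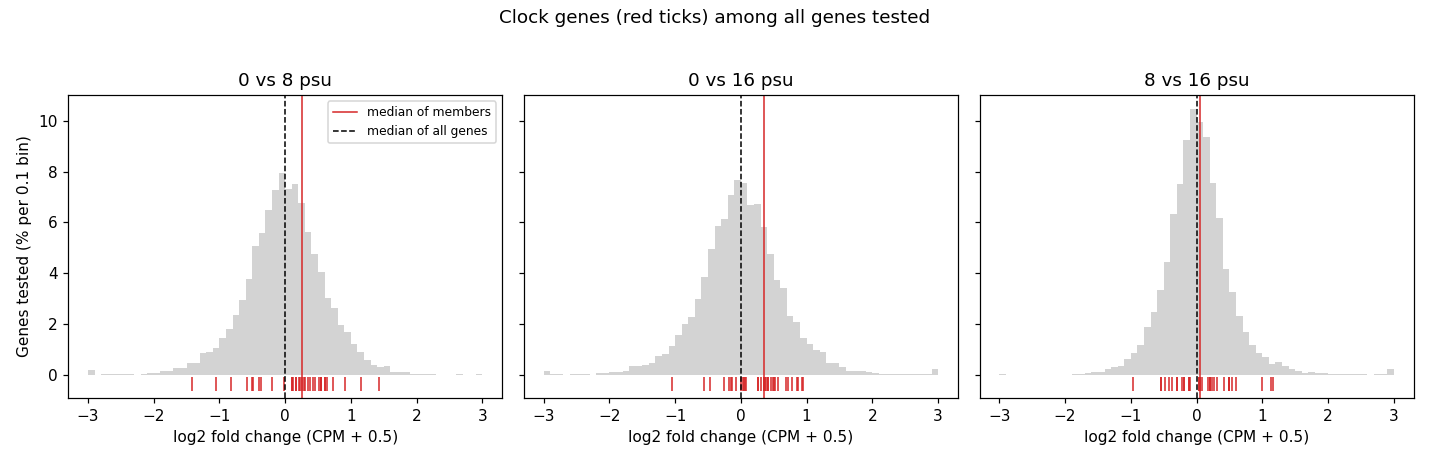
Distribution of log2 fold changes over all 16573 genes (histogram) with the clock genes drawn in each set, on the log2(CPM + 0.5) scale, with values beyond 3 placed in the end bins. The members' medians were 0.25, 0.36 and 0.05 from the left panel to the right, beside medians of 0.00, 0.01 and 0.00 for all genes.

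Among the activators at the head of the loop, the 2 clock paralogs took different courses. The locus clocka (LOC100690629) had 14 counts in freshwater, 1 count at 8 psu and 13 counts at 16 psu. It was therefore nearly absent from the 8 psu library alone, at a depth where all its values are small. It fell in the 0 vs 8 psu set with a log2 fold change of -1.41 (interval from -9.24 to -1.12, adjusted p = 0.00373 by the exact binomial test). In the 8 vs 16 psu set it rose by 1.16 (interval from 0.70 to 8.85, adjusted p = 0.0238 by the same exact test). At 16 psu against 0 psu it had -0.25 (from -1.61 to 0.80). With 2 CPM added in place of 0.5, these log2 values were -0.54 and 0.42 and neither passed.

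Its paralog clockb (LOC100703460) had 92, 146 and 187 counts at 0, 8 and 16 psu, or 6.71, 10.5 and 11.2 CPM. The freshwater library was the lowest, and the saline libraries did not differ beyond counting error. Its log2 fold changes were 0.60 (interval from 0.25 to 1.03) at 8 psu and 0.69 (from 0.37 to 1.11) at 16 psu, both against 0 psu and both short of the limit of 2-fold, and 0.09 (from -0.23 to 0.42) between the saline libraries. Of the reads of the 2 paralogs, clockb made up 86.8% (exact 95% interval from 78.8% to 92.6%) at 0 psu, 99.3% (from 96.3% to 99.98%) at 8 psu and 93.5% (from 89.1% to 96.5%) at 16 psu. The interval at 8 psu lay wholly above that at 0 psu.

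The locus npas2, the paralog of clock that can take its place beside BMAL, had 76, 76 and 60 counts. It was lowest at 16 psu, with a log2 fold change of -0.57 (interval from -1.14 to -0.12) against 0 psu and -0.54 (from -1.12 to -0.10) against 8 psu. The locus bmal2, a partner of CLOCK, had 14, 8 and 10 counts, and none of its 3 intervals excluded no change. No other bmal locus and no arntl locus was found by symbol. Only 13937 of 27855 locus numbers had a symbol, so a BMAL1 locus may be among the unnamed ones. Of the activators found, none but clocka passed the criteria.

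The period genes, which encode the repressor partners of the cryptochromes, were ordered from 0 over 8 to 16 psu in all 3 cases. The counts of per3 (LOC100690808) were 1214, 1606 and 2730, or 88.5, 115 and 163 CPM. Each library stood above the one before it, with intervals that excluded no change in every set. The log2 fold changes were 0.38 (interval from 0.27 to 0.49), 0.88 (from 0.78 to 0.98) and 0.50 (from 0.41 to 0.59) in the 3 sets in turn. At 1.84-fold the 0 vs 16 psu value was short of the limit, and with total-count library sizes it was 1.03 and passed.

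The counts of per1b (LOC100695408) were 1510, 1832 and 2731, or 110, 131 and 163 CPM. The libraries kept the same order as for per3, with narrower steps. Its log2 fold changes were 0.25 (interval from 0.15 to 0.35), 0.56 (from 0.47 to 0.66) and 0.31 (from 0.23 to 0.40). By contrast per2, a period gene that is induced by light in zebrafish, had 84, 92 and 125 counts, and its intervals included no change in all 3 sets, from -0.34 to 0.55 at 8 psu and from -0.13 to 0.70 at 16 psu against freshwater. Of the reads of per3 and per1b together, per3 made up 44.6% (from 42.7% to 46.5%) at 0 psu, 46.7% (from 45.0% to 48.4%) at 8 psu and 49.99% (from 48.7% to 51.3%) at 16 psu. These shares compare 2 genes within a library and do not depend on the scaling. The interval at 16 psu lay above both of the others.

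Cryptochromes are the partners of PER proteins in the repressor complex. The counts of cry1a were 142, 169 and 290, or 10.4, 12.1 and 17.3 CPM. The 16 psu library stood above both others, with log2 fold changes of 0.71 (interval from 0.45 to 1.04) against 0 psu and 0.50 (from 0.24 to 0.80) against 8 psu. The counts of cry1b were 206, 225 and 326, and its values had the same order at smaller size, with 0.36 (from 0.12 to 0.63) at 16 psu against 0 psu and 0.26 (from 0.02 to 0.52) against 8 psu. The counts of cry2 were 146, 220 and 230. Here both saline libraries stood above freshwater, by 0.54 (from 0.26 to 0.88) at 8 psu and 0.35 (from 0.06 to 0.68) at 16 psu.

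The locus cry5 (LOC100694290), whose zebrafish counterpart is a light-induced photolyase that repairs ultraviolet damage to DNA and not a clock repressor, had 6 counts in freshwater, 22 at 8 psu and 20 at 16 psu. Freshwater was the lowest. It rose in the 0 vs 8 psu set with a log2 fold change of 1.15 (interval from 0.50 to 3.44, adjusted p = 0.0151 by the exact binomial test), a CPM ratio of 3.60 without the added 0.5 CPM. With 2 CPM added its log2 value was 0.55 and it did not pass. At 16 psu against 0 psu it had 0.85 (from 0.08 to 3.05, adjusted p = 0.0838 by the same exact test) and met neither criterion. Between the saline libraries it had -0.29 (from -1.35 to 0.54).

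**Figure D3:**
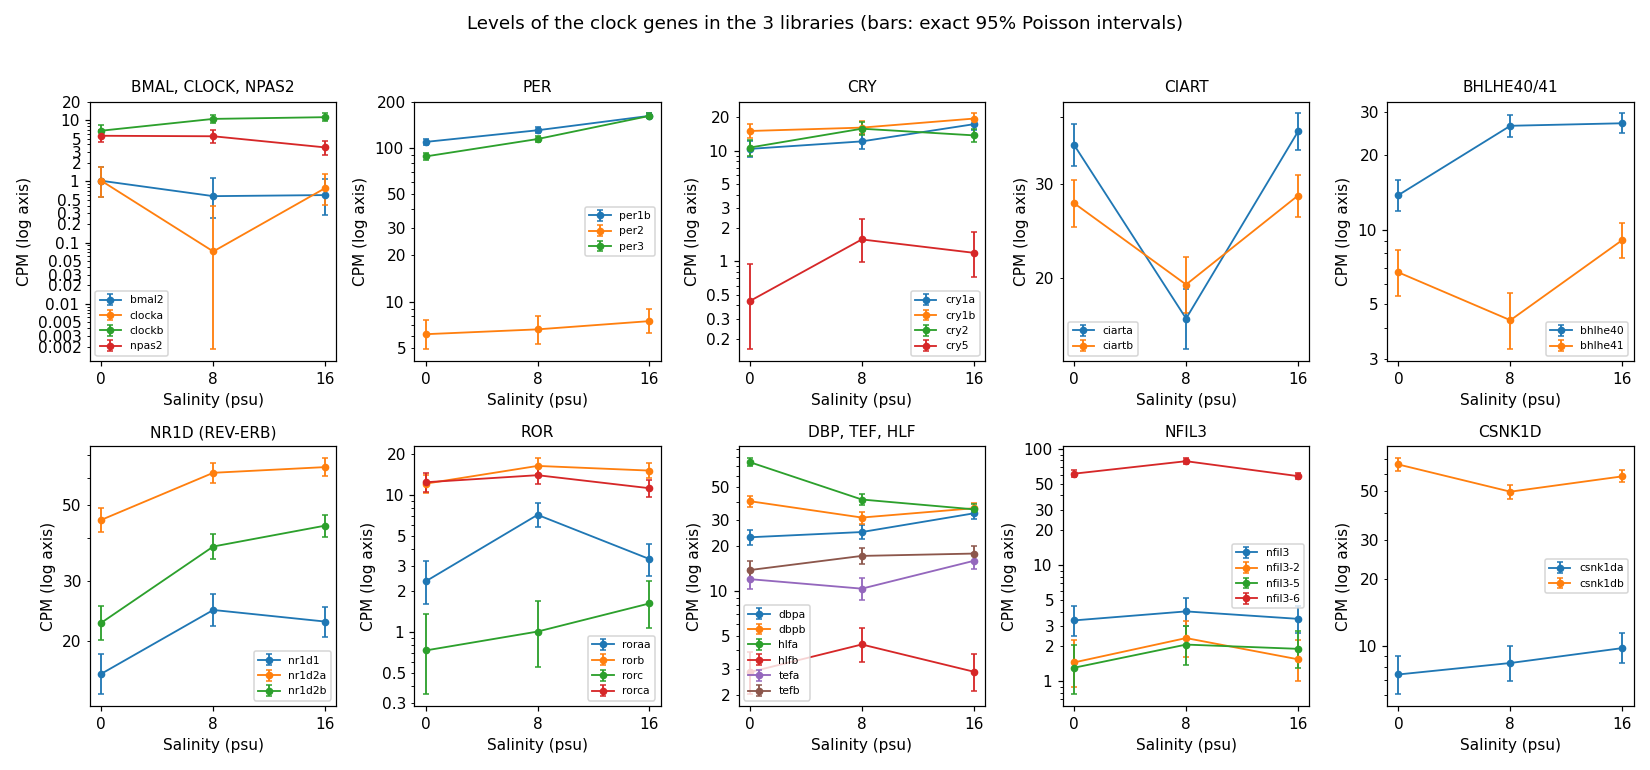
CPM (log axis) of the clock genes in the 0, 8 and 16 psu libraries (x axis, salinity in psu), in 1 panel per role, with lines joining the 3 libraries of a gene and bars for exact 95% Poisson intervals (counting error only). The panels show per1b and per3 reaching 163 CPM each at 16 psu, both ciart genes lowest at 8 psu, and hlfa highest at 0 psu with 73.9 CPM.

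Both ciart genes were lowest at 8 psu. In all this held for 8 of the 35 members, or 22.9%, a smaller share than the 30.7% of all genes. The others were bhlhe41, tefa, bmal2, clocka, csnk1db and dbpb. The intervals of bmal2 and tefa in the 0 vs 8 psu set included no change. The product of ciart, known as CHRONO from work in mice, represses the BMAL1 and CLOCK pair and is itself under E-box control. The counts of ciarta (LOC100706575) were 487 at 0 psu, 235 at 8 psu and 631 at 16 psu, or 35.5, 16.8 and 37.6 CPM. The 8 psu library stood apart from the other two, which did not differ beyond counting error. It fell in the 0 vs 8 psu set with a log2 fold change of -1.06 (interval from -1.31 to -0.85, adjusted p = 7.51e-21 by the exact binomial test). It rose by 1.14 in the 8 vs 16 psu set (interval from 0.94 to 1.38, adjusted p = 1.02e-26 by the same exact test), and had 0.08 (from -0.09 to 0.26) in the 0 vs 16 psu set. With total-count library sizes the 0 vs 8 psu value was -0.93, which no longer passed, and with 2 CPM added it was -0.99.

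Its paralog ciartb (LOC102079624) had 379, 272 and 479 counts, or 27.6, 19.5 and 28.6 CPM. The same library was lowest, at a smaller size: the log2 fold changes were -0.49 (from -0.73 to -0.28), 0.05 (from -0.15 to 0.25) and 0.54 (from 0.34 to 0.77). Of the reads of both paralogs, ciarta made up 56.2% (from 52.9% to 59.6%) at 0 psu, 46.4% (from 41.9% to 50.8%) at 8 psu and 56.8% (from 53.9% to 59.8%) at 16 psu. The interval at 8 psu lay below both of the others, so the paralogs differed in the size of the dip within the same libraries.

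The 2 bhlhe4 genes, which encode the DEC repressors that compete for E-boxes, took different courses. The counts of bhlhe40 (LOC100690907) were 189, 367 and 451, or 13.8, 26.3 and 26.9 CPM. Both saline libraries stood above freshwater and did not differ from each other beyond counting error. The log2 fold changes were 0.91 (interval from 0.67 to 1.19) at 8 psu and 0.94 (from 0.72 to 1.22) at 16 psu. Both were just under 2-fold, and with total-count library sizes both passed, at 1.03 and 1.09.

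The counts of bhlhe41 (LOC100694216) were 92, 60 and 152, or 6.71, 4.30 and 9.06 CPM. As for the ciart genes, the 8 psu library was the lowest. Its log2 fold changes were -0.59 (from -1.14 to -0.16), 0.41 (from 0.05 to 0.82) and 1.00 (from 0.64 to 1.53), the last lying just under the limit, and just above it with total-count sizes (1.02) or 0.1 CPM added (1.06). Of the reads of the 2 DEC genes, bhlhe40 made up 67.3% (from 61.4% to 72.7%) at 0 psu, 85.9% (from 82.3% to 89.1%) at 8 psu and 74.8% (from 71.1% to 78.2%) at 16 psu. The interval at 8 psu lay above both of the others.

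All 3 REV-ERB loci, repressors of bmal and clock genes, had higher CPM in both saline libraries than in freshwater. The counts of nr1d2b (LOC100702127) were 310, 527 and 728, or 22.6, 37.7 and 43.4 CPM, with log2 fold changes of 0.73 (interval from 0.53 to 0.95) at 8 psu and 0.93 (from 0.75 to 1.14) at 16 psu against 0 psu. The latter was under 2-fold with TMM and passed with total-count library sizes, at 1.07. The counts of nr1d2a were 619, 865 and 1079, with 0.45 (from 0.31 to 0.61) and 0.51 (from 0.37 to 0.66). The steps of nr1d2a were thus smaller than those of its paralog, and the saline libraries did not differ beyond counting error. The counts of nr1d1 were 220, 344 and 382, with 0.60 (from 0.37 to 0.87) and 0.49 (from 0.26 to 0.75). Of the 3 loci only nr1d2b had an interval that excluded no change between the saline libraries, at 0.20 (from 0.04 to 0.37). The share of nr1d2b in the reads of nr1d2b and nr1d2a was 33.4% (from 30.3% to 36.5%), 37.9% (from 35.3% to 40.5%) and 40.3% (from 38.0% to 42.6%), with the 16 psu interval above that of freshwater.

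The ROR genes, activators at the same elements, were less uniform. The counts of roraa (LOC100689995) were 32 at 0 psu, 100 at 8 psu and 57 at 16 psu, or 2.33, 7.16 and 3.40 CPM. It was highest at 8 psu, and the other libraries did not differ beyond counting error. It rose in the 0 vs 8 psu set with a log2 fold change of 1.43 (interval from 1.03 to 2.24, adjusted p = 4.64e-08 by the exact binomial test). In the 8 vs 16 psu set its value was -0.97 (from -1.57 to -0.59), just short of the limit, and -1.05 with 0.1 CPM added. At 16 psu against 0 psu it had 0.46 (from -0.11 to 1.22). The locus rorb had 166, 228 and 253 counts, with 0.42 (from 0.14 to 0.73) at 8 psu and 0.31 (from 0.03 to 0.61) at 16 psu. The locus rorca had 170, 195 and 188 counts and its only interval that excluded no change was at 16 psu against 8 psu (-0.30, from -0.61 to -0.02). The locus rorc had 10, 14 and 27 counts, with an interval above no change in the 0 vs 16 psu set alone (from 0.05 to 2.35).

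The output activators of the DBP, TEF and HLF family bind D-boxes in clock-controlled genes. The counts of hlfa (LOC100706807) were 1013 at 0 psu, 578 at 8 psu and 596 at 16 psu, or 73.9, 41.4 and 35.5 CPM. Freshwater was far the highest, a course opposite to that of most members. It fell in the 0 vs 16 psu set with a log2 fold change of -1.04 (interval from -1.20 to -0.91, adjusted p = 7.41e-46 by the exact binomial test). At 8 psu against 0 psu it had -0.83 (from -0.99 to -0.69), short of the limit, and between the saline libraries -0.22 (from -0.39 to -0.05). With total-count library sizes the 0 vs 16 psu value was -0.90 and did not pass.

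Its paralog hlfb had 39, 61 and 48 counts, with intervals that excluded no change at 8 psu against 0 psu (0.54, from 0.02 to 1.24) and at 16 psu against 8 psu (-0.53, from -1.19 to -0.04), and 0.01 (from -0.63 to 0.66) at 16 psu against 0 psu. Of the reads of both paralogs, hlfa made up 96.3% (from 94.97% to 97.4%), 90.5% (from 87.9% to 92.6%) and 92.5% (from 90.2% to 94.5%) at 0, 8 and 16 psu. Both saline intervals lay below that of freshwater. The paralogs thus differed in their course within the same libraries.

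The dbp and tef loci showed no call. The counts of dbpa were 316, 349 and 560, and it was highest at 16 psu, with 0.53 (interval from 0.33 to 0.74) against 0 psu and 0.41 (from 0.22 to 0.62) against 8 psu. The counts of dbpb were 553, 437 and 606, and it was lowest at 8 psu, with -0.36 (from -0.55 to -0.18) against 0 psu. The share of dbpa in the reads of both was 36.4% (from 33.2% to 39.7%), 44.4% (from 40.9% to 48.0%) and 48.0% (from 45.1% to 50.9%), lower in freshwater than in either saline library. The counts of tefa were 165, 145 and 268, with 0.60 (from 0.33 to 0.92) in the 8 vs 16 psu set, and those of tefb were 190, 241 and 300, with 0.36 (from 0.10 to 0.64) in the 0 vs 16 psu set. The share of tefa in the reads of both was 46.5% (from 41.2% to 51.8%), 37.6% (from 32.7% to 42.6%) and 47.2% (from 43.0% to 51.4%). It was lowest at 8 psu, where its interval lay below that at 16 psu and overlapped that at 0 psu by a small margin. The locus tefm had 7, 15 and 12 counts and no interval that excluded no change.

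NFIL3 represses from the same D-boxes. The deepest of its loci, nfil3-6 (LOC100707270), had 844, 1101 and 983 counts, or 61.5, 78.8 and 58.6 CPM. It was highest at 8 psu, by 0.35 (interval from 0.23 to 0.49) against 0 psu, and had -0.42 (from -0.55 to -0.30) at 16 psu against 8 psu. The locus nfil3 had 46, 56 and 58 counts, nfil3-2 had 20, 33 and 26, and nfil3-5 had 18, 29 and 32. All 4 tested loci had their highest CPM at 8 psu, although only the intervals of nfil3-6 excluded no change. The loci nfil3-6 and nfil3-2 are neighbours in the gene name table, and the sources used here do not say how reads that match both were treated.

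Casein kinase 1 delta phosphorylates PER proteins and so sets their stability. The counts of csnk1db were 904, 694 and 977, or 65.9, 49.7 and 58.3 CPM. It was lowest at 8 psu, by -0.40 (interval from -0.55 to -0.26) against 0 psu, and its value at 16 psu was -0.18 (from -0.31 to -0.05). The counts of csnk1da were 102, 117 and 164, with 0.37 (from 0.03 to 0.77) in the 0 vs 16 psu set. The share of csnk1da in the reads of both was 10.1% (from 8.34% to 12.2%) at 0 psu, 14.4% (from 12.1% to 17.0%) at 8 psu and 14.4% (from 12.4% to 16.5%) at 16 psu. Freshwater had the lowest share. Its interval lay below that at 16 psu and overlapped that at 8 psu by a small margin, which does not show that these shares are equal.

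Opposed limbs of the clock were then compared within each library by the share of their reads, which does not depend on how libraries are scaled. The shares add reads of genes of different lengths, so only their differences between libraries are read, and each limb leans on its most counted genes. The activators bmal2, clocka, clockb and npas2 had 196 reads at 0 psu against 3302 of the per genes, cry1a, cry1b and cry2. Their share was 5.60% (exact 95% interval from 4.86% to 6.42%) at 0 psu, 5.28% (from 4.64% to 5.98%) at 8 psu and 4.03% (from 3.57% to 4.53%) at 16 psu. The interval at 16 psu lay below both of the others, and per1b and per3 supplied most of the reads of the repressor limb. The activator limb held no BMAL1 locus, since none was found by symbol, and clockb and npas2 supplied most of its reads.

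REV-ERB reads made up 75.2% (from 73.0% to 77.4%) of REV-ERB and ROR reads at 0 psu, 76.4% (from 74.6% to 78.1%) at 8 psu and 80.7% (from 79.1% to 82.1%) at 16 psu. The 16 psu library stood above the others, while 0 and 8 psu overlapped. The gap between the intervals at 16 and 8 psu depended on roraa. Without it the ROR share of these reads was 23.1% (from 21.0% to 25.4%), 20.1% (from 18.4% to 21.9%) and 17.6% (from 16.2% to 19.1%). The ROR share at 16 psu was still the lowest, and its interval still lay below that at 0 psu. The interval at 8 psu then overlapped both of the others. Overlap of intervals does not show that shares are equal, and the difference between these shares was not tested. DBP, TEF and HLF reads made up 71.0% (from 69.4% to 72.6%), 59.7% (from 58.0% to 61.5%) and 68.4% (from 66.8% to 69.9%) of their reads and those of NFIL3 at 0, 8 and 16 psu. The read share of these activator genes was therefore lowest at 8 psu. Without hlfa the shares were 57.6% (from 55.5% to 59.7%), 50.2% (from 48.2% to 52.2%) and 61.8% (from 60.0% to 63.6%), so that the dip at 8 psu was still present and the order of 0 and 16 psu turned.

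**Figure D4:**
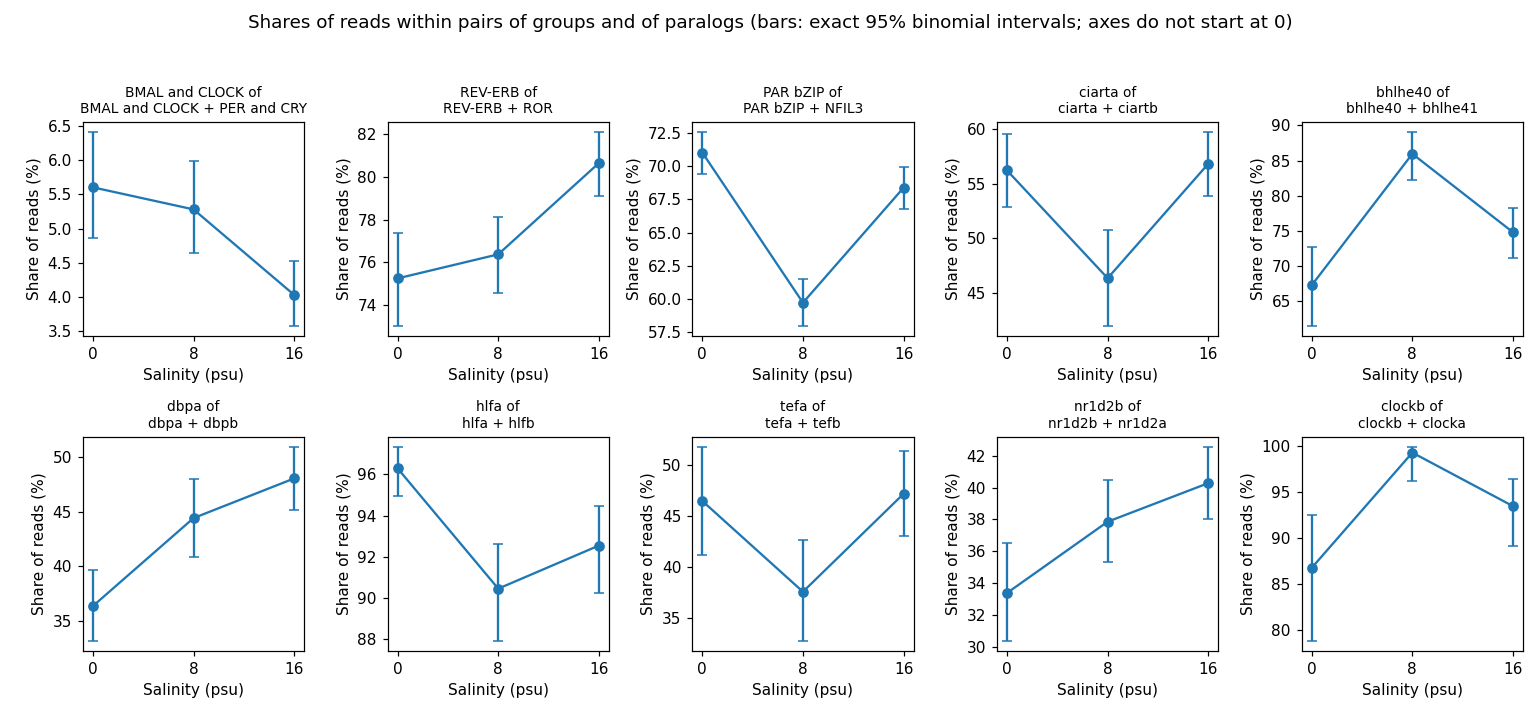
Share of reads (y axis, percent, axis not from 0) of 1 limb or paralog within a pair in the 0, 8 and 16 psu libraries (x axis, salinity in psu), with exact 95% binomial intervals as bars. REV-ERB reads were 75.2%, 76.4% and 80.7% of REV-ERB and ROR reads, and ciarta was 56.2%, 46.4% and 56.8% of the reads of the ciart pair.

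Genes around the clock were counted by lists that exclude the members. Some genes stand in more than 1 list, among them usp2a, pck1, ppara, cebpd and pdk4, so the counts of the lists are not independent. As background, 4.42% of all genes rose and 5.33% fell at 8 psu against 0 psu, 5.79% and 5.27% at 16 psu against 0 psu, and 3.40% and 2.13% at 16 psu against 8 psu. Of 36 tested loci for clock protein turnover and modification, 1 rose and 1 fell in the 0 vs 8 psu set, 1 rose and 2 fell in the 0 vs 16 psu set, and 1 rose in the 8 vs 16 psu set. The list medians were 0.08, 0.02 and -0.03. The locus fbxl3l, named for a ubiquitin ligase subunit that targets cryptochromes, had 12, 34 and 30 counts and rose by 1.09 at 8 psu. The counts of usp2a, a deubiquitinase under clock control in mouse liver, were 487, 209 and 275, and it fell by 1.22 at 8 psu and by 1.09 at 16 psu on the log2 scale. The counts of nono, a partner of PER proteins, were 144, 174 and 496, and it rose by 1.45 at 16 psu against 0 psu and by 1.22 against 8 psu. The counts of ncor1, the corepressor that REV-ERB recruits, were 1943, 1370 and 1034, and it fell by 1.19 at 16 psu against 0 psu.

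Of 19 tested loci for known outputs of the liver clock, 3 fell in the 0 vs 8 psu set, 1 rose and 3 fell in the 0 vs 16 psu set, and 2 rose in the 8 vs 16 psu set, with medians of -0.09, 0.23 and 0.28. The 3 that fell in both sets were usp2a, lpin1a and 1 of the ppara loci. The phosphatidate phosphatase gene lpin1a had 490, 177 and 187 counts, and its log2 fold changes were -1.46 at 8 psu and -1.64 at 16 psu. The fatty acid receptor gene ppara had 249, 89 and 99 counts at this locus, with -1.44 and -1.54. The other ppara locus was counted more deeply, with 665, 718 and 1199 counts. It did not fall, with 0.08 at 8 psu and 0.56 at 16 psu against 0 psu and no call. The gluconeogenic gene pck1 had 18, 8 and 280 counts and rose by 3.25 at 16 psu against 0 psu and by 4.00 against 8 psu. The paralog lpin1b had 142, 130 and 330 counts and rose by 1.04 in the 8 vs 16 psu set. Cholesterol 7-alpha-hydroxylase, cyp7a1, the rate-limiting enzyme of bile acid synthesis, had 3503, 4582 and 5401 counts and no call.

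The members lowest at 8 psu, a smaller share than among all genes, were set beside 13 tested loci that glucocorticoids are known to induce. Of these, 1 rose and 6 fell in the 0 vs 8 psu set, 1 rose and 4 fell in the 0 vs 16 psu set, and 4 rose in the 8 vs 16 psu set, with medians of -0.84, -0.33 and 0.34. The counts of fkbp5, a chaperone of the glucocorticoid receptor, were 1097, 162 and 994. It was lowest at 8 psu, as was ciarta, with log2 fold changes of -2.73 (interval from -3.03 to -2.55) at 8 psu against freshwater and 2.30 (from 2.11 to 2.60) at 16 psu against 8 psu. The kinase gene sgk1, with 2158, 1081 and 3697 counts, and the phosphatase gene dusp1, with 302, 126 and 293, were lowest in the same library, and both fell in the 0 vs 8 psu set. The transcription factor gene klf9, with 493, 154 and 237 counts, and the metallothionein gene mt2, with 5965, 621 and 441, were low in both saline libraries. In the opposite direction tsc22d3, known as GILZ, had 3766, 7686 and 8169 counts and rose by 1.00 in the 0 vs 8 psu set. By sign, 10 of the 13 loci were lower and 3 higher in the 0 vs 8 psu set, where 8281 of all 16573 genes were lower and 8255 higher. In the 0 vs 16 psu set 8 were lower and 5 higher, and in the 8 vs 16 psu set 5 were lower and 8 higher. The part of this list in the clock results was not tested.

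For the remaining lists the same background holds. Of 14 tested fasting-induced loci, 1 rose and 1 fell in the 0 vs 8 psu set, 2 rose and 2 fell in the 0 vs 16 psu set, and 2 rose and 1 fell in the 8 vs 16 psu set, among them igfbp1a, an inhibitor of insulin-like growth factors, with 22, 10 and 382 counts. Of the 3 tested light-induced loci outside the members, polh, a DNA polymerase that bypasses ultraviolet damage, had 25, 72 and 145 counts and rose by 1.28 at 8 psu and 1.98 at 16 psu, and the other two had no call. Of 18 other basic leucine zipper loci, 2 fell in the 0 vs 8 psu set, among them cebpa with 1449, 629 and 1736 counts, which rose again by 1.19 in the 8 vs 16 psu set. At 16 psu against 0 psu, 1 locus of this list rose (xbp1) and 1 fell (jun). Of 22 other nuclear receptor loci, 2 rose and 2 fell in each of the sets against freshwater and 1 rose in the 8 vs 16 psu set, with rxrgb at 1309, 550 and 451 counts and nr0b1a at 45, 130 and 231 counts. Median values of these last 2 lists lay between -0.11 and 0.22.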

How the data were processed

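The authors purified poly(A) RNA, sequenced it on an Ion Proton, used FAST-QC for read filtering and aligned with MapSplice against Orenil1.1. Their processing notes also name HTSeq. They deposited raw counts of reads per gene, whole numbers without normalization. The sources used here give neither the strand nor the treatment of reads with several matches. Of the gene identifiers, 27855 were locus numbers. A RefSeq name table of another assembly (O_niloticus_UMD_NMBU) held 23652 of them and gave symbols to 13937. The remaining 1750 genes were symbols. Of the members, 35 were found as locus numbers and 1 (rorb) as a symbol.

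Genes that reached 10 counts in any library were kept. Library sizes were scaled by TMM (edgeR 4.0.16, R 4.3.3) to 13715183, 13967430 and 16767876 effective counts at 0, 8 and 16 psu. Tests and intervals used Python 3.11.15 and scipy 1.17.1. A log2 fold change is a difference of log2(CPM + 0.5). The 2-sided exact binomial p (smaller tail doubled) was adjusted over 16573 genes. A comparison of 2 single libraries leaves no residual degrees of freedom, and EB-Seq, the test of the authors, was not run here. Members with a call were given by counts and log2 fold changes in all 3 sets, as were the paralogs clockb, ciartb and hlfb. Every other member was given at least by its counts, and list genes by their calls or depth. The members and lists were chosen with earlier results of these data known. The planned promoter search was not run. Alternatives were DESeq2 1.42.0 size factors, upper quartile and total-count scaling, other count minimums, fold limits and added CPM, and edgeR's exact test with an assumed coefficient of variation.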

Additional observations from a re-analysis of the deposited data

How the results depend on the processing

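With 1 pooled library per salinity, all intervals cover counting error only, and 3 counts correspond to 0.219, 0.215 and 0.179 CPM at 0, 8 and 16 psu. No paired analysis was possible because each salinity has 1 library. The counts of called members (4, 1 and 2 in the 3 sets in turn) depended mainly on the fold limit and on the assumed variation. With a fold limit of 1.5 they were 10, 6 and 5, beside 10.1% of all genes up and 11.5% down, 11.9% up and 12.4% down, and 6.72% up and 5.77% down. With a fold limit of 4 they were 0, 0 and 0. With edgeR's exact test they were 0, 0 and 0 at an assumed coefficient of variation of 0.2, where 1.06%, 2.46% and 1.19% of all genes rose and 1.82%, 2.48% and 0.362% fell. At 0.4 they were 0, 0 and 0, and 1, 0 and 1 members had an unadjusted exact p under 0.05, beside 3.25%, 4.28% and 2.46% of all genes. A minimum of 100 counts left 2 at 8 psu against 0 psu and 1 at 16 psu against 8 psu, since it drops the low genes clocka and cry5. The share of all genes called at this minimum was not computed.

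Total-count library sizes gave 3 calls in the 0 vs 16 psu set (bhlhe40, nr1d2b and per3, all up, with hlfa lost). With this scaling 1244 of all 16573 genes rose and 666 fell in that set. Total counts also left 1 member interval below no change where TMM gave 3. The share of such intervals over all genes was not computed for this scaling. The share of calls among all genes that were up was 45.4% with TMM and 58.6% with total counts at 8 psu against 0 psu, and 52.3% and 65.1% at 16 psu against 0 psu. The sign turned for npas2 at 8 psu against 0 psu (0.019 by upper quartile, 0.093 by total counts) and, by total counts in the 0 vs 16 psu set, for nfil3-6 (0.080) and rorca (0.0054). Of 525 single gene values over 5 alternatives, 508 kept direction and call, 6 lost a call, 7 gained one and 4 turned sign. The medians of the members kept their direction in every alternative tried, but at 16 psu against 8 psu the median was 0.05 over all members and 0.20 with a minimum of 100 counts.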
